A study of Homo sapiens with 20 samples.

Results

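SRSF1 sites found with overexpression only are stretches of RNA where the splicing factor SRSF1 gave a cross-linking peak in cells overexpressing hnRNPA1 and none in control cells. They were chosen from the measured values: the peaks of 6 SRSF1 iCLIP libraries were merged by chromosome and strand, and a site was a member when it held a peak in at least 2 of the 3 overexpression libraries and in 0 of the 3 control libraries. The rule gave 2827 members among 35117 merged sites (8.05%). SRSF1 reads at the members are therefore described without a test, and tests were kept to 2 other proteins, U2AF2 and hnRNPA1, whose peaks the rule did not use.

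The cells were TREX FLP-In 293T, an established human embryonic kidney line. The labels give HEK293T as its parent in the treatment protocol and HEK293 in the RNA-seq titles, so the parent is not settled here. The overexpression group carried an inducible T7-tagged hnRNPA1 and had been selected with hygromycin, and the control group lacked the construct and had been selected with blasticidin and zeocyin. Both groups were selected for 3 days and held under tetracycline, the inducer, for 24 h. They are thus separate lines under different selection agents, and nothing in the labels states how many clones they stand for. iCLIP, which freezes a protein on RNA with ultraviolet light and sequences the fragments that come down with it, was done on nuclear extracts, with 3 overexpression and 3 control libraries for SRSF1 and for U2AF2, and 2 and 2 for hnRNPA1. Polyadenylated RNA was sequenced from 2 overexpression and 2 control samples. No label says that replicates were separate cultures, so p-values measure the spread between these libraries, which may be technical. The files hold peaks and not expression levels, so more contact per transcript and more transcript cannot be told apart, and the amount of overexpressed hnRNPA1 was not measured here.

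SRSF1 belongs to the SR proteins, named for their serine and arginine repeats. It binds purine-rich RNA, often in exons, and helps to bring the splicing machinery to nearby splice sites. hnRNPA1 is an abundant nuclear RNA-binding protein that often acts against SR proteins when splice sites are chosen. U2AF2 is the large subunit of the factor that recognises the polypyrimidine tract before a 3′ splice site. The question put by the study's design is whether raising hnRNPA1 changes where SRSF1 and U2AF2 sit on RNA.

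A compact group of members lay on genes of small nucleolar RNAs (snoRNAs), short structured RNAs that are cut out of introns and guide chemical modification of ribosomal RNA. Of the 28 such members, 23 (82.1%) had a peak in all 3 overexpression libraries, against 685 of 2827 members in all (24.2%). The transcripts of 5 of those with the most SRSF1 reads are shown because the peak sits on an RNA with a sequence of its own. They are GENCODE 29 transcripts (build GRCh38), matched by gene ID and read 5′ to 3′ on the RNA strand. Capitals mark GGA, the core of the purine-rich motif SRSF1 is known to bind.
SNORA73B: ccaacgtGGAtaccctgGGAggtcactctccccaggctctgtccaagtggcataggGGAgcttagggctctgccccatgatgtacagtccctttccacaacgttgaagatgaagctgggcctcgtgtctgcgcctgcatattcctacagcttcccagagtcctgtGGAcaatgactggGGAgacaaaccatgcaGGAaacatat
SCARNA1: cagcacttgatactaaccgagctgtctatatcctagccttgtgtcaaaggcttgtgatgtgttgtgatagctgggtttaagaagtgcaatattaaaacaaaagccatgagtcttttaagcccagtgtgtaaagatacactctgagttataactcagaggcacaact
SNORA10: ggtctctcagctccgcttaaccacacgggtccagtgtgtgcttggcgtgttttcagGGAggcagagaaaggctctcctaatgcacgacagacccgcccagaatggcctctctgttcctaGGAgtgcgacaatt
SNORA3A: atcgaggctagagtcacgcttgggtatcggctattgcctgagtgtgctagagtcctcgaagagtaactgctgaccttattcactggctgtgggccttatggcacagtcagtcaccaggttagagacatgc
SNORD60: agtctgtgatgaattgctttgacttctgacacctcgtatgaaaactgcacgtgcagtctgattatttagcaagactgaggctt
SNORA73B holds 6 GGA and SNORA10 holds 2, while SCARNA1, SNORA3A and SNORD60 hold 0. GGA, searched on the RNA strand alone, occurred in 75% of the 28 snoRNA and scaRNA genes with a member, in 65.7% of 134 other such genes with an SRSF1 peak, and in 78.7% of 1004 GENCODE transcripts of these classes. Its median density was 1.498 per 100 nt in the first group, 1.19 in the second and 1.47 in all transcripts. The letters GGA were thus about as common in snoRNAs with a member as in snoRNAs at large.

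By class, 19 of these members lay on H/ACA snoRNAs, which guide pseudouridylation, 8 on C/D snoRNAs, which guide ribose methylation, and 1 on SCARNA1, a guide RNA of the Cajal body. Members fell on 41.3% of the 46 H/ACA snoRNA genes that had an SRSF1 peak in any library and on 7.69% of the 104 C/D genes, beside 22.4% of all 9230 genes with an SRSF1 peak. The strongest was at SNORA73B, in the SNHG3 and RCC1 locus (hg19 chr1:28835130-28835288, plus strand), with 93, 195 and 156 reads in the 3 overexpression libraries and no peak in any control library, written below as 0 reads although peaks under 6 reads are not in the files. A control SRSF1 peak lay 33 nt away, and SNORA73B has a near-identical neighbour in the same host, so the assignment of reads to the copy is uncertain. SNORA72, inside the ribosomal protein gene RPL30, had 48, 72 and 74 reads with overexpression and 0 in control cells. SCARNA1, inside PPP1R8, had 40, 65 and 62 reads with overexpression and 0 in control cells. SNORA10, inside the ribosomal protein gene RPS2, had 39, 51 and 74 reads, and SNORA36A, inside DKC1, the gene of the pseudouridine synthase that H/ACA snoRNAs guide, had 8, 31 and 8 reads, both with 0 in each control library. The 28 sites ranged from 7.39 to 115 normalised reads (reads divided by a library size factor, averaged over the 3 overexpression libraries), with a median of 19.97 against 5.07 for all members. A control SRSF1 peak lay within 200 nt of 5 of the 28, beside 22.7% of all members.

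**Figure D1:**
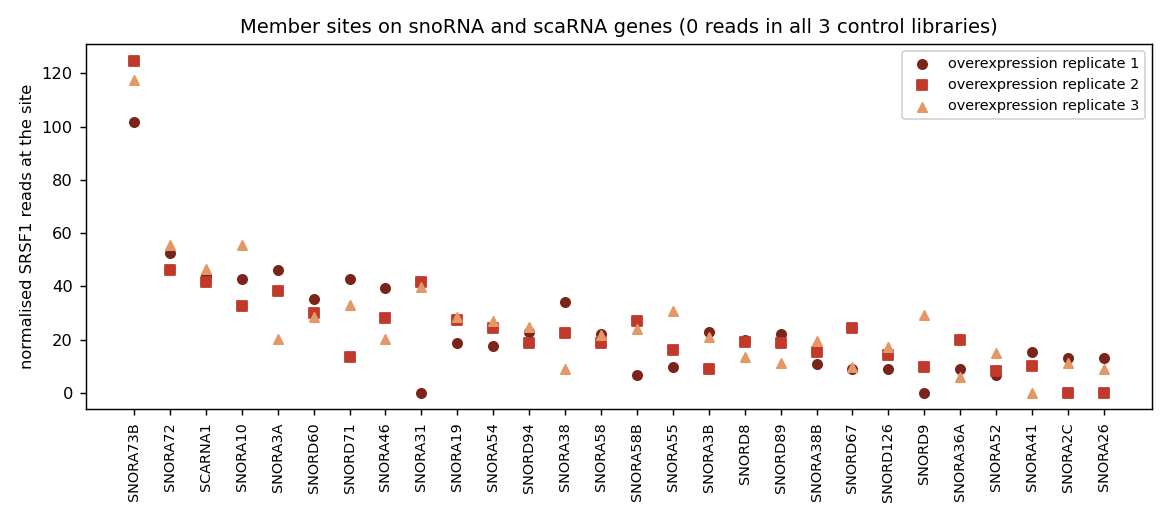
Normalised SRSF1 reads (vertical axis) at the 28 member sites on snoRNA and scaRNA genes (horizontal axis, ordered by mean), 1 symbol per overexpression library. Of the 28 sites, 23 have reads in all 3 libraries, and SNORA73B stands highest.

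hnRNPA1 and U2AF2 peaks at these 28 sites were fewer with overexpression. An hnRNPA1 peak overlapped 0 and 2 of them in the overexpression libraries and 12 and 12 in the control libraries. A U2AF2 peak overlapped 4, 6 and 12 of them with overexpression and 15, 14 and 13 in control cells. The 12 came from overexpression replicate 3, which lists peaks from 3 reads where the other U2AF2 libraries list them from 6. Some of its peaks here were under that minimum, with 3 reads at SNORA73B and 4 at SNORD60. The U2AF2 ranges did not overlap, although these libraries were deeper with overexpression, and the hnRNPA1 libraries were shallower, as given below; the part of depth in the hnRNPA1 difference was not tested at these sites. At SNORD60 the hnRNPA1 libraries gave 0 and 0 reads with overexpression and 50 and 44 in control cells. At SNORA10 the U2AF2 libraries gave 0, 7 and 6 reads with overexpression and 18, 40 and 70 in control cells.

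The members as a whole were weak sites. SRSF1 libraries held 175293, 329448 and 271174 reads in peaks with overexpression and 173766, 125082 and 151186 in control cells. Where present, members had a median of 8, 10 and 9 reads in the 3 overexpression libraries, against 14, 18 and 16 reads at the 3301 sites kept in both conditions (a peak in at least 2 libraries of each). They took 11.1%, 11.99% and 12.2% of the reads in peaks of the overexpression libraries. Sites chosen by the mirrored rule, 2023 found in control cells only, took 11.2%, 11.3% and 10.9% of the control reads. Members had a median length of 90 nt (12 to 922 nt), against 95 nt at kept sites. Of the members, 2142 (75.8%) had a peak in just 2 of the libraries.

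The number of members depended on depth. When each SRSF1 library was thinned to the size of the shallowest, 701 sites met the rule, of which 564 overlapped a member, while 2030 met the mirrored rule. Leaving out an overexpression library makes the rule stricter as well, since both of those that remain must hold a peak. The count was then 1924 without overexpression replicate 1, 1125 without replicate 2, the deepest library, and 1185 without replicate 3. At the edge of the rule, sites in CAMTA1, KDM1A and MACF1 entered with 0, 6 and 6 reads in the overexpression libraries. The strongest sites left outside, 3 on XIST, had a peak in a single overexpression library each, with 146, 118 and 113 reads.

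Most members lay in RNAs that SRSF1 also contacted in control cells. For 2294 members (81.1%) the host gene held an SRSF1 peak elsewhere in at least 1 control library, and for 533 it held none. The nearest control SRSF1 peak on the strand was a median of 1720 nt away. It was within 200 nt for 642 members (22.7%) and beyond 10000 nt for 876 (31.0%). Members within 200 nt had a median of 6.30 normalised reads and were in all 3 overexpression libraries in 31.9% of cases, and members beyond 10000 nt had 4.59 normalised reads and 24.7%. TIPIN, a partner of the replication fork protein TIMELESS, showed the far kind: its 1 member (chr15:66639538-66639614, minus strand) had 53, 69 and 64 reads with overexpression, and TIPIN held no SRSF1 peak in any control library.

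The highest reads of all fell on long nuclear RNAs. Of the 12 members with the most normalised reads, 11 were on XIST, the RNA that silences an X chromosome, and 1 on MALAT1, a nuclear RNA of speckles. The top member (chrX:73071200-73071274, minus strand) had 267, 432 and 346 reads with overexpression and 0 in each control library. The MALAT1 member (chr11:65268307-65268347, plus strand) had 102, 207 and 166 reads with overexpression and 0 in control cells, and a control peak lay 16 nt away. XIST carried 33 members and MALAT1 11. MALAT1 as a whole held 78, 95 and 84 SRSF1 peaks with overexpression and 65, 50 and 64 in control cells. NEAT1, the scaffold of paraspeckles, had 7 members.

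By number of members, ERBB4, a receptor tyrosine kinase, led with 42. LRP1B, a giant lipoprotein receptor, had 36 and XIST 33. Next came DST, a cytoskeletal linker, with 18, ERC1, a scaffold protein, with 16, and ADGRV1, an adhesion receptor, with 15. MALAT1, MACF1, EFNA5 and POLR2J2 had 11 each, PRKDC 10 and TMEM242 9. Gene and intron lengths were not measured here. POLR2J2 has near-identical copies, so its reads are uncertain. Of the 2066 host gene IDs, 1690 (81.8%) were protein coding by GENCODE 29, 1592 (77.1%) held a single member and 56 held 5 or more. Whether a member was exonic or intronic was not analysed here, since no annotation of hg19 was used, and 229 members (8.10%) were listed under more than 1 gene.

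LRP1B was close to empty of SRSF1 in control cells. Over the gene, SRSF1 had 38, 155 and 94 peaks with 300, 1517 and 863 reads in the overexpression libraries, and 3, 1 and 1 peaks with 19, 6 and 7 reads in the control libraries. Normalised, this was 650 ± 321 reads with overexpression and 11.8 ± 5.34 in control cells (SD, n = 3 each), and none of its 36 members had a control peak within 200 nt. The groups did not overlap. ERBB4 had 490, 2051 and 1241 SRSF1 reads with overexpression and 292, 76 and 253 in control cells. DST had 170, 432 and 494 reads with overexpression and 73, 22 and 21 in control cells. TMEM242, a small membrane protein gene, had 516, 859 and 728 reads with overexpression and 94, 64 and 118 in control cells, and its members sat within chr6:157731445-157735195, 7 of the 9 within 200 nt of a control peak. PRKDC, which encodes a DNA repair kinase, had 231 ± 38.3 normalised reads with overexpression and 271 ± 93.9 in control cells (SD, n = 3 each), values that overlapped. These genes were picked for their members, so the differences are a description.

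**Figure D2:**
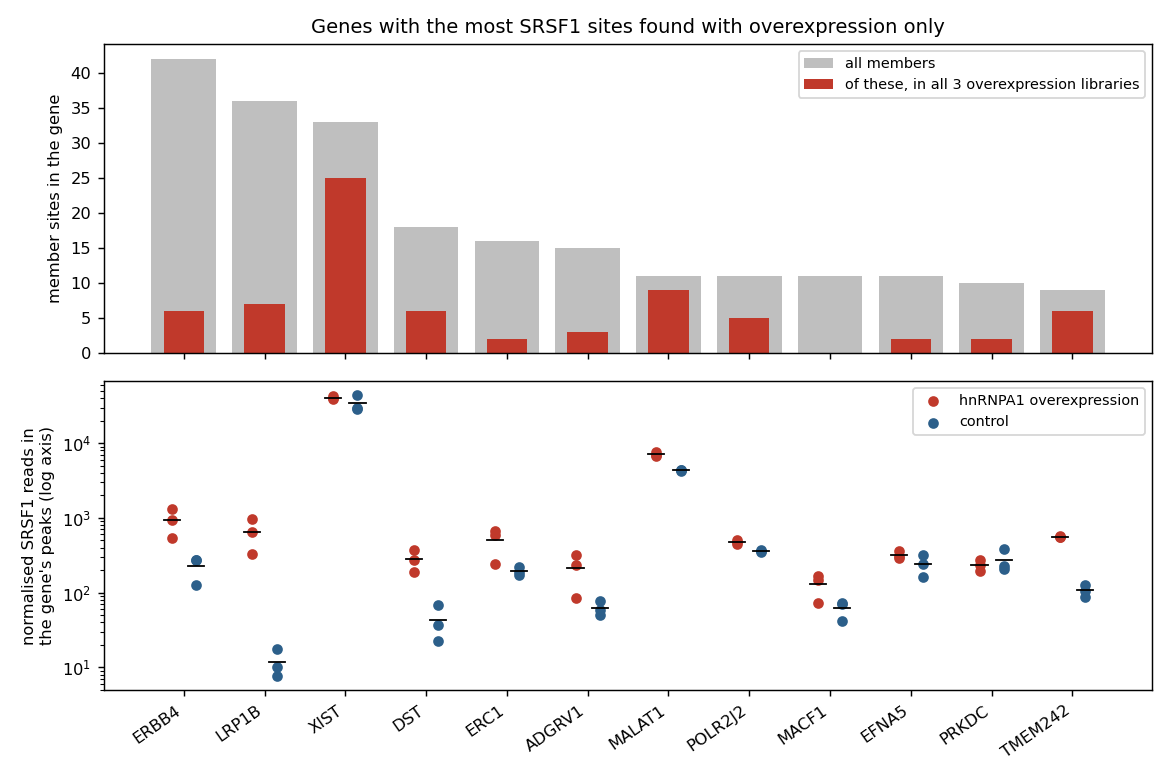
Upper panel, member sites (vertical axis, number) in the 12 genes with the most, and those in all 3 overexpression libraries. Lower panel, normalised SRSF1 reads in all peaks of each gene (log axis), 1 point per library, overexpression left and control right, bars at the means; LRP1B averages 650 with overexpression and 11.8 in control cells.

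hnRNPA1 rose over several of these genes. In LRP1B the hnRNPA1 libraries held 11735 and 9962 reads with overexpression and 15961 and 11321 in control cells, while the libraries as a whole held 549365 and 575471 reads with overexpression and 2973275 and 2508821 in control cells. Normalised, this was 24962 ± 3901 with overexpression and 5678 ± 797 in control cells (SD, n = 2 each), a log2 change of 2.13 ± 0.13 (SE; limma over genes that had a peak in each hnRNPA1 library, adjusted p = 0.00129). NEAT1 rose by 2.04 ± 0.09 (limma, adjusted p = 0.000227), with 11426 ± 695 normalised hnRNPA1 reads with overexpression and 2770 ± 56.7 in control cells (SD, n = 2 each). Across 12 settings the change ran from 1.13 to 2.32 in LRP1B and from 1.42 to 2.18 in NEAT1, and both lost their call under quantile normalization, where no gene was called. MALAT1 rose by 1.16 ± 0.08 and PRKDC by 0.98 ± 0.16 (limma, adjusted p = 0.00164 and 0.0159), and MALAT1 turned to -0.37 under quantile normalization. ADGRV1 fell by 0.92 on the log2 scale (SE 0.19, limma, adjusted p = 0.0266).

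U2AF2 moved differently over the same RNAs. Normalised U2AF2 reads in MALAT1 fell to 2623 ± 837 with overexpression, against 37425 ± 5813 in control cells (SD, n = 3 each), a log2 change of -3.87 ± 0.24 (SE; limma over genes that had a peak in each U2AF2 library, adjusted p = 6.02e-06). ERBB4 changed by -3.91 ± 0.25 (limma, adjusted p = 8.86e-06) and DST by -1.996 ± 0.20 (limma, adjusted p = 8.65e-05). All 3 were negative and past the threshold in each of 14 settings, but their size was not stable: the smallest fall, under quantile normalization, was -0.57 in MALAT1, -0.98 in ERBB4 and -0.97 in DST. LRP1B gave -1.36 ± 0.25 (limma, adjusted p = 0.00215), but this turned to as high as 0.66 under another setting, so no direction is given. At the 9 members in TMEM242, a U2AF2 peak was present at 7, 9 and 8 of them with overexpression and at 0, 0 and 1 in control cells, and an hnRNPA1 peak at all 9 in each of the 4 hnRNPA1 libraries. At the 42 members in ERBB4, an hnRNPA1 peak was present at 29 and 31 with overexpression and at 40 and 40 in control cells.

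Over all members, a U2AF2 peak overlapped 48.3%, 51.3% and 54.5% of them in the 3 overexpression libraries and 41.2%, 42.3% and 50.4% in the 3 control libraries. An hnRNPA1 peak overlapped 15.5% and 19.2% of the members with overexpression and 62.2% and 60.3% in control cells. The hnRNPA1 share was lower with overexpression at other SRSF1 sites too. Its mean was 15.7% with overexpression and 46.5% in control cells at all merged sites. The means were 43.3% and 86.7% at kept sites, and 17.5% and 47.1% at sites found in control cells only. For U2AF2 the means at all merged sites were 34.3% with overexpression and 29.9% in control cells. The groups overlapped for U2AF2, since the highest control library lay among the overexpression libraries, and were far apart for hnRNPA1. Library depth moved the same way as both shares. The U2AF2 libraries held 108944, 99569 and 230438 peaks with overexpression and 34055, 37811 and 52824 in control cells, and the hnRNPA1 libraries 42340 and 43523 with overexpression and 131778 and 121821 in control cells. The shares were therefore set against the kept SRSF1 sites of the same library, where U2AF2 overlapped 76.4 ± 1.79% with overexpression and 78.9 ± 2.97% in control cells (SD, n = 3 each).

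On that scale U2AF2 at the members lay higher with overexpression and hnRNPA1 lower, in every library. The log2 ratio of the member share to the kept share was -0.57 ± 0.06 with overexpression and -0.83 ± 0.10 in control cells (SD, n = 3 each), a difference of 0.25 (exact permutation test, two-sided, p = 0.1, the smallest that 3 against 3 can give). The 3 overexpression libraries all lay above the 3 control libraries. The ratio still varied with depth within a condition. In control libraries of 34055, 37811 and 52824 peaks it was -0.90, -0.88 and -0.71. In overexpression libraries of 99569, 108944 and 230438 peaks it was -0.59, -0.62 and -0.51. How far depth enters the difference was not tested beyond the equal number of peaks given below. For hnRNPA1 the log2 ratio was -1.32 ± 0.01 with overexpression and -0.50 ± 0.03 in control cells (SD, n = 2 each), a difference of -0.82 (exact permutation test, two-sided, p = 0.33, the smallest that 2 against 2 can give). With the same number of peaks kept in every library of a protein, an alternative chosen after the data were seen, the differences were 0.11 for U2AF2 and -0.57 for hnRNPA1, with the same exact p. The U2AF2 share of members itself was then 38.9 ± 2.66% with overexpression and 42.3 ± 2.22% in control cells (SD, n = 3 each), the opposite order to that of the full peak lists. Against control-only sites in place of kept sites they were 0.16 (exact permutation p = 0.3) and -0.39 (exact permutation p = 0.33). The design cannot reach an exact p of 0.05 for either protein alone.

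**Figure D3:**
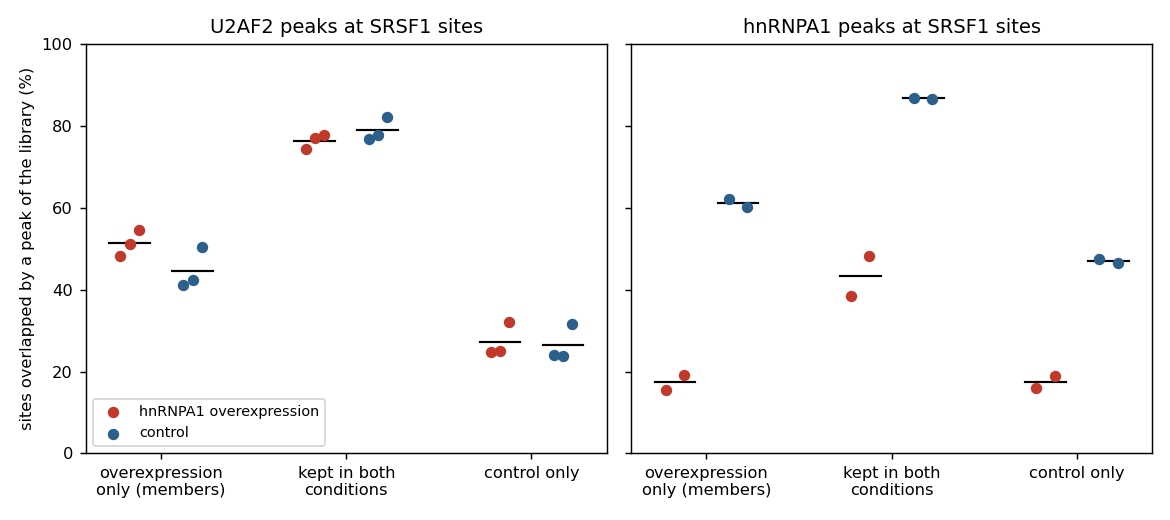
Share of SRSF1 sites overlapped by a peak (vertical axis, percent) for U2AF2 and hnRNPA1, for members, kept sites and control-only sites, 1 point per library, overexpression left and control right, bars at the means. U2AF2 lies at 48.3% to 54.5% of members with overexpression and 41.2% to 50.4% in control cells, and hnRNPA1 at 15.5% and 19.2% against 62.2% and 60.3%.

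Combined, the commonest arrangement was a site with U2AF2 in both conditions that had hnRNPA1 in control cells only. A condition counted here where at least 2 of its libraries of the protein had an overlapping peak, and as absent where none had. That is 2 of 3 libraries for U2AF2 and both libraries for hnRNPA1. U2AF2 was present in both conditions at 898 members (31.8%), with overexpression only at 299 (10.6%), in control cells only at 253 (8.95%), and in neither at 683 (24.2%). hnRNPA1 was present in both at 266 (9.41%), with overexpression only at 12 (0.424%), in control cells only at 970 (34.3%), and in neither at 855 (30.2%). Of the members, 573 (20.3%) held U2AF2 in both conditions and hnRNPA1 in control cells only, and 436 (15.4%) held neither protein in any library. Among kept sites, U2AF2 was present in both conditions at 68.4% and hnRNPA1 in control cells only at 29.6%. The joint arrangement was counted at members alone, so whether it is particular to them was not tested. The hnRNPA1 libraries also held fewer peaks in all with overexpression, as given above.

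Reads of the 2 proteins at single sites were then fitted over all SRSF1 sites with limma on log2(normalised reads + 1). Among sites where 50% or more of the U2AF2 libraries had a peak, 462 of 1585 members tested were higher with overexpression (adjusted p under 0.05) beside 30.2% of all sites tested, and 342 were lower beside 24.1%. Among sites where each U2AF2 library had a peak, 250 of 545 members were higher beside 38.4% of all sites, and 117 were lower beside 27.1%. The wider filter counts an unlisted peak as 0 reads, and in simulated libraries of these depths nearly all of its calls were false, so its counts, for sites and for genes alike, are not evidence of change. Under the stricter filter few simulated calls were false, except for hnRNPA1 at sites, where a large share were. Genes and sites are therefore named from the stricter filter. For hnRNPA1 the direction turned with the filter. Where 50% or more of the hnRNPA1 libraries had a peak, 104 of 1614 members were higher beside 5.96% of all sites and 969 were lower beside 52.4%. Where each hnRNPA1 library had a peak, 121 of 266 members were higher beside 38.6% and 1 was lower beside 5.97%. No direction of hnRNPA1 over single members is drawn from these fits.

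The largest U2AF2 rises at members under the stricter filter were in IGF2R, a sorting receptor of lysosomal enzymes, AARS2, a mitochondrial alanine tRNA synthetase, ARID4B, a chromatin regulator, AS3MT, an arsenic methyltransferase, and the unnamed gene ENSG00000255384. The IGF2R member (chr6:160515799-160515949, plus strand) had 500, 413 and 888 U2AF2 reads with overexpression and 12, 12 and 16 in control cells. Normalised, this was 233 ± 37.6 with overexpression and 31.2 ± 3.79 in control cells (SD, n = 3 each), a log2 change of 2.86 ± 0.22 (limma, adjusted p = 1.81e-06). Its SRSF1 reads were 10, 13 and 13 with overexpression and 0 in control cells. The ARID4B member had 420, 340 and 458 U2AF2 reads with overexpression and 8, 12 and 10 in control cells. The other rises ranged from 2.17 to 2.85 on the log2 scale.

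The largest U2AF2 falls at members were in ZNF711, HNRNPH1, SHTN1, SF3B1 and SRSF11. The HNRNPH1 member (chr5:179046719-179046915, minus strand) had 48, 59 and 23 U2AF2 reads with overexpression and 461, 531 and 662 in control cells, a log2 change of -6.19 ± 0.41 (limma, adjusted p = 7.57e-07). At the same site SRSF1 had 32, 105 and 86 reads with overexpression and 0 in each control library. The SF3B1 member (chr2:198283351-198284254, minus strand) had 8, 55 and 9 U2AF2 reads with overexpression and 193, 160 and 216 in control cells, beside 20, 108 and 58 SRSF1 reads with overexpression and 0 in control cells. At the SRSF11 member (chr1:70694771-70694896, plus strand) U2AF2 had 42, 43 and 8 reads with overexpression and 204, 201 and 294 in control cells. In ZNF711, 6684 of the reads came from a single peak of control replicate 3 that spans several members, so its size rests on that library. HNRNPH1, SF3B1 and SRSF11 are themselves splicing factors.

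Genes of hnRNP, SR and 3′ splice site factors with a member mostly showed the same U2AF2 direction over the whole gene. Among genes with an SRSF1 peak, a member lay in 13 of 27 hnRNP genes, 15 of 30 genes of the SR family and its kinases, and 6 of 19 genes of 3′ splice site and U2 factors, beside 2066 of 9230 genes in all (22.4%). Of 34 spliceosome core genes with an SRSF1 peak, 6 held a member (17.6%). U2AF2 reads per gene were lower with overexpression in 12 of the 13 hnRNP genes, 13 of the 15 SR and kinase genes and 5 of the 6 3′ splice site genes, and higher in 0 of them, by limma over genes that had a peak in each U2AF2 library. In the same fit, 3 of the 6 spliceosome core genes with a member were lower and 1 was higher, with a median log2 change of -0.90. Of all genes tested, 30.7% were lower and 28.6% higher. Of all 1655 host genes of members tested there, 590 were lower and 529 higher. Where 50% or more of the U2AF2 libraries had a peak, 578 of 2008 host genes were lower beside 16.0% of all genes and 507 higher beside 27.5%. The median log2 change was -3.49 in the hnRNP genes, -3.60 in the SR and kinase genes and 0.02 over all genes. Among genes of these lists with no member, 10 of 14 hnRNP genes and 10 of 13 SR and kinase genes were lower and 0 higher, while of 7 3′ splice site and U2 genes 3 were lower and 2 higher. The total-read and quantile scalings were run under the wider filter alone, so their counts are not evidence of change. Under either scaling, 11 of the 13 hnRNP genes, 12 of the 15 SR and kinase genes and 5 of the 6 3′ splice site genes with a member were lower. SF3B3, the other 3′ splice site gene with a member, was higher under both scalings, and 1 SR or kinase gene was higher by quantiles.

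The genes of the 3 proteins themselves each held members. HNRNPA1 had 1 member, SRSF1 3 and U2AF2 2. U2AF2 reads on HNRNPA1 were 79, 120 and 234 with overexpression and 452, 465 and 691 in control cells, from libraries of 2701476, 2317615 and 3657197 reads with overexpression and 702563, 783212 and 1158060 in control cells, a log2 change of -4.51 ± 0.28 (limma, adjusted p = 6.53e-06). On SRSF1 the U2AF2 log2 change was -4.05 ± 0.41 (limma, adjusted p = 9.69e-05), and on U2AF2, a gene whose product bound its own RNA here, -1.44 ± 0.18 (limma, adjusted p = 0.000332). Each of these genes was negative and past the threshold in all 14 settings, with the smallest fall at -3.71 for HNRNPA1, -2.88 for SRSF1 and -0.64 for U2AF2. Apart from the fit with a peak in each U2AF2 library, those settings used the wider filter or none, so their calls add little. The libraries of both groups overlapped for SRSF1 reads summed over each of these genes. HNRNPA1 had 198 ± 32.2 normalised SRSF1 reads with overexpression and 246 ± 190 in control cells, SRSF1 had 235 ± 66.9 with overexpression and 263 ± 51.6 in control cells, and U2AF2 had 57.0 ± 13.3 with overexpression and 88.7 ± 44.8 in control cells (SD, n = 3 each). The groups did not overlap for HNRNPH1, with 1141 ± 90.5 normalised SRSF1 reads with overexpression and 620 ± 33.4 in control cells (SD, n = 3 each), and SF3B1 had 123 ± 35.9 with overexpression and 36.1 ± 30.8 in control cells. SRSF11, with 8 members, had 141, 823 and 406 SRSF1 reads with overexpression and 132, 45 and 134 in control cells.

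**Figure D4:**
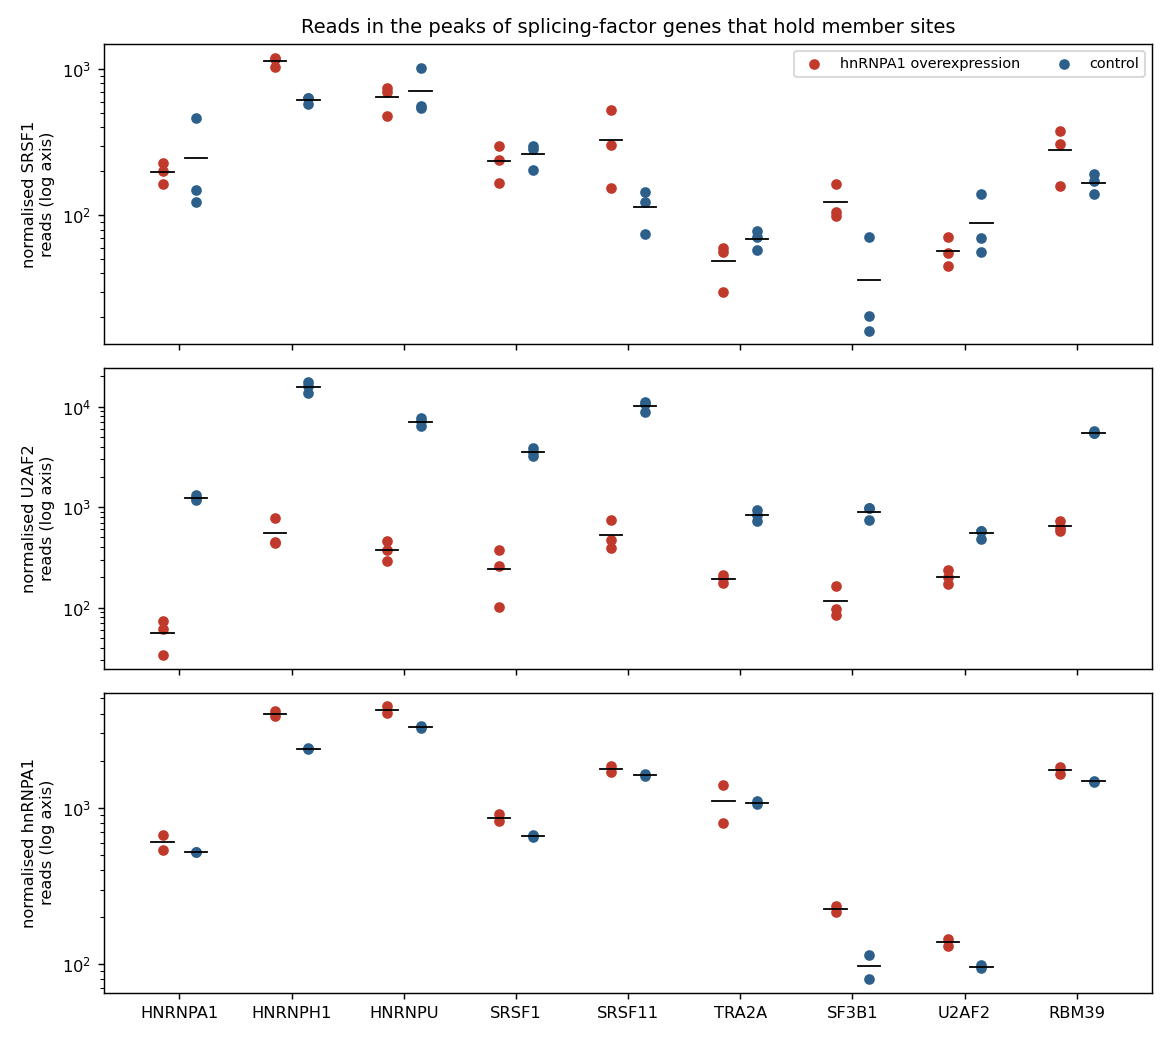
Normalised reads in all peaks of 9 splicing-factor genes with members (log axes) for SRSF1, U2AF2 and hnRNPA1, 1 point per library, overexpression left and control right, bars at the means. U2AF2 points lie lower with overexpression at each of the 9 genes, while SRSF1 means are higher with overexpression at 4 of them (HNRNPH1, SRSF11, SF3B1 and RBM39).

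Fewer of the splicing-factor genes were called for hnRNPA1. By limma over genes that had a peak in each hnRNPA1 library, hnRNPA1 was higher in 3 and lower in 0 of the 13 hnRNP genes, and higher in 2 and lower in 1 of the 15 SR and kinase genes, beside 9.5% higher and 8.33% lower of all genes. HNRNPH1 was among the rises, at 0.74 ± 0.10 (limma, adjusted p = 0.0121). Of 15 DNA damage response genes with a member, hnRNPA1 was higher in 7 and lower in 0, with a median log2 change of 1.01 beside 0.01 over all genes, and of 20 such genes with no member it was higher in 2 and lower in 0. RIF1, which guards broken ends, rose by 1.77 ± 0.27, ATRX, a chromatin remodeller, by 1.52 ± 0.27, and BRCA1 by 1.03 ± 0.23 (limma, adjusted p = 0.0149, 0.0183 and 0.0296). Of 15 cell cycle genes with a member, it was higher in 7 and lower in 0, and of 23 with no member it was higher in 6 and lower in 1, with a median of 0.70. The largest change among those with a member was in TOP2A, a topoisomerase of dividing cells, at 2.52 ± 0.41 (limma, adjusted p = 0.0154), with 135 ± 26.9 normalised reads with overexpression and 22.6 ± 3.19 in control cells (SD, n = 2 each). PRC1, a spindle midzone protein, rose by 1.86 ± 0.32 (limma, adjusted p = 0.0180). The medians of both groups stayed positive under each scaling, but no gene was called under quantile normalization, where 3780 of 12461 genes had an unadjusted limma p under 0.05. The total-read and quantile scalings again used the wider filter. Where 50% or more of the hnRNPA1 libraries had a peak, 184 of 1979 host genes were higher beside 4.31% of all genes, and 468 were lower beside 34.1%.

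Zinc finger genes ran against the splicing factors for U2AF2. Of 32 ZNF genes with a member and a peak in each U2AF2 library, U2AF2 was higher with overexpression in 21 and lower in 3, with a median log2 change of 1.09. ZNF483 rose by 2.68 ± 0.41 and ZNF169 by 1.13 ± 0.20 (limma, adjusted p = 0.000848 and 0.00173), while ZNF711 changed by -4.33 ± 0.20 (limma, adjusted p = 2.17e-06). Among ZNF genes with no member, 47 of 118 were higher and 19 lower. Members lay in 43 of 233 ZNF genes with an SRSF1 peak (18.5%), which was below the 22.4% of all genes. Cytoplasmic ribosomal protein genes had members in 9 of 75, and giant cytoskeletal and ubiquitin ligase genes in 17 of 27 (63.0%), with 83 members. The lists were chosen with earlier results of these data known, and the latter holds DST, with 18 members, and MACF1, with 11. Its share is a description, and the part of gene length in it was not tested.

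The last comparison set members beside exon inclusion. The authors' deposited table lists 251 cassette exon events chosen for a difference between conditions, with inclusion as a fraction of transcripts. In the authors' deposited table, 24 events had a span (upstream to downstream exon, either strand) that held a member, and inclusion was lower with overexpression in 20 of them (83.3%) and higher in 4. Of all 251 events in the authors' deposited table, 155 (61.8%) were lower, of 27 events with a kept site 19 (70.4%), and of 17 with a control-only site 13 (76.5%). The median difference, overexpression minus control, was -0.33 for events with a member and -0.21 for all events. No test was made, since the table holds chosen events and the members were chosen too.

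The 10 largest of these differences in the authors' deposited table were in NPIPP1, NADSYN1, UBXN4, SGK3, NPIPB14P, NDUFV1, RBM39, the TIMM23B-AGAP6 readthrough, NAP1L4 and ZNF711, and 9 of the 10 were lower with overexpression. For NPIPP1, NADSYN1, UBXN4 and SGK3 the authors' deposited table gives inclusion in only 1 control sample. RBM39 encodes a splicing factor related to U2AF2. In the authors' deposited table its exon (span chr20:34326890-34328519) had an inclusion of 0.15 and 0.15 with overexpression and 0.72 and 0.44 in control cells. The ZNF711 event, which spans 3 members, had 0.20 and 0.24 with overexpression and 0.58 and 0.59 in control cells in the authors' deposited table. NDUFV1, a subunit of respiratory complex I, had 0.10 and 0.25 with overexpression and 0.58 and 0.67 in control cells in the authors' deposited table. NADSYN1, which makes NAD, had 0.05 and 0.06 with overexpression and 0.61 in the 1 control sample the authors' deposited table gives. In these 4 genes the groups did not overlap. NPIPP1 and NPIPB14P belong to a family of near-identical copies, so their reads are uncertain, and the TIMM23B-AGAP6 event spans chr10:51387653-51734610, so its 2 members may lie far from the exon.

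**Figure D5:**
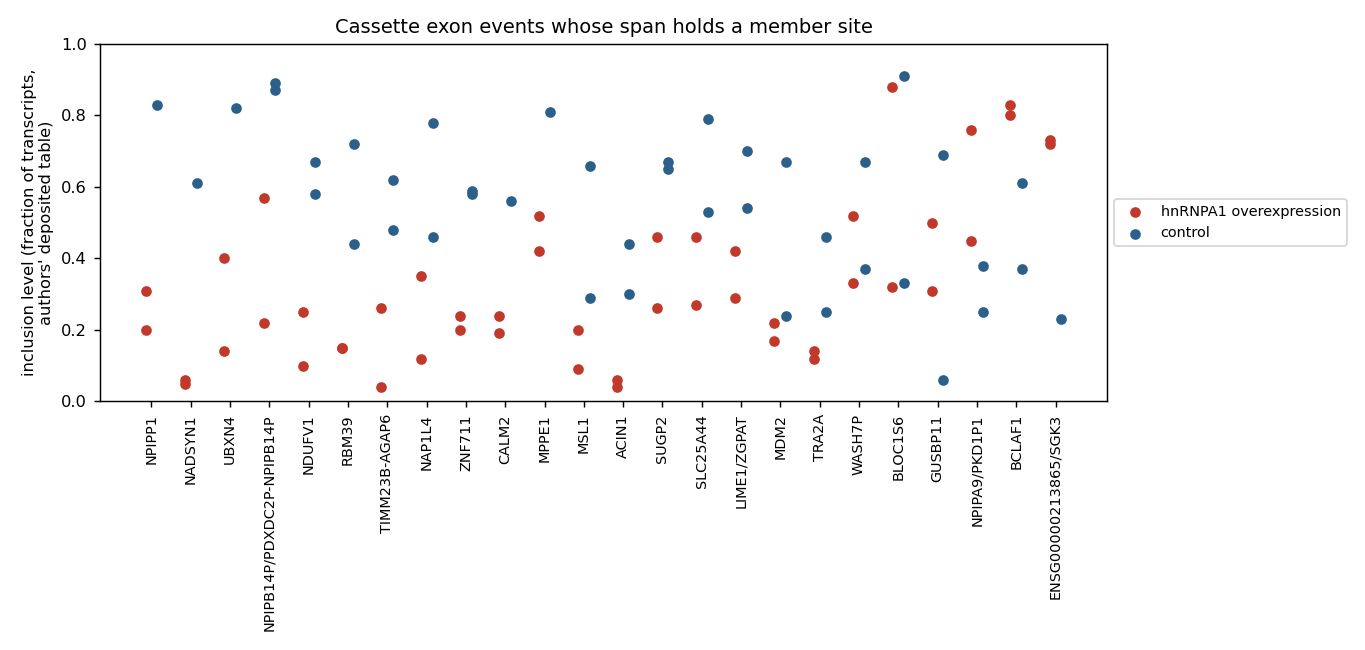
Inclusion level (vertical axis, fraction of transcripts, from the authors' deposited table) for the 24 events whose span holds a member, 1 point per RNA-seq sample with a value, overexpression left and control right, ordered by difference. In 20 of the 24 the mean inclusion is lower with overexpression.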

How the data were processed

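Each deposited iCLIP file is a peak list of 1 library. Per the file headers, the authors mapped reads to hg19 with TopHat, filtered repeats and called peaks per library with CLIPper in pre-mRNA mode. The submitters' processing notes also name Bowtie2, and versions are not given in the sources used here. Each deposited peak carries a CLIPper p-value and a name that holds the gene ID and its number of reads, at least 6 in every library except U2AF2 overexpression replicate 3. That library lists peaks from 3 reads, has versioned gene IDs and lists 0 peaks on XIST. For RNA-seq the authors deposited a MISO comparison, with exon inclusion as a fraction and Bayes factors as a ratio. It runs control minus overexpression and was turned round here.

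The members and the gene lists were chosen with earlier results of these data known. Peaks of 1 strand that shared 1 nt or more were merged, and a peak given under more than 1 gene entered a single time. Replicates were counted as separate samples. Exactly identical peaks were rare between them, with a highest value of 0.0693% of the shorter list, for U2AF2 overexpression replicates 1 and 2. That value leaves out peaks that merely overlap: 1270 merged sites held a peak in all 6 SRSF1 libraries. Reads per gene or site were divided by median-of-ratios size factors over genes seen in all libraries of a protein, with 0 where no peak was listed. After adding a pseudocount of 1, log2 values went into limma 3.58.1 (R 4.3.3, trended eBayes), condition as the only term, over all sites or genes where 50% or more, or all, of the libraries had a peak, two-sided, with Benjamini-Hochberg adjustment and a threshold of 0.05. The fits were tested on simulated data, where nearly all calls under the 50% filter were false, as were a large share of those for hnRNPA1 at sites with a peak in all libraries. A site's partner reads are those of every overlapping peak, so a wide peak counts at each member it spans. Shares per library were compared with exact permutation tests over libraries. Of 19362 gene IDs, 17814 matched the gene name table. Named sites were the 12 members with the most normalised reads and the 3 on each side of the rule. Named genes were the 12 with the most members, genes of the lists with a member, the 5 largest rises and falls past the threshold, and the 10 largest exon differences. snoRNA members beyond that, TIPIN and the members in TMEM242 were picked after their values were seen. Other software was scipy 1.17.1, pandas 2.3.3 and numpy 2.4.6 under Python 3.11.15, with figures from matplotlib 3.10.9. Peaks under the minimum are not listed, so a 0 means that no peak passed it.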

Additional observations from a re-analysis of the deposited data

Results flagged for a closer look

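The change at the members went in opposite directions for the 2 partner proteins. The log2 ratio of the member share to the kept share changed by 0.25 for U2AF2 and by -0.82 for hnRNPA1 (overexpression minus control), a difference between proteins of 1.07. With condition labels permuted within each protein, the exact two-sided p was 0.0167, the smallest that the 120 arrangements can give. The test was chosen after the data were seen. The libraries of each protein had already separated fully, in opposite directions, so this p was fixed beforehand and adds no support. The same holds for each exact p of 0.0167 that follows. With an equal number of peaks per library the difference was 0.69 (exact p = 0.0167), against control-only sites 0.55 (exact p = 0.05), and with both changes 1.15 (exact p = 0.0167). Peak numbers per library moved in opposite directions for the 2 proteins, higher with overexpression for U2AF2 and lower for hnRNPA1.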

How the results depend on the processing

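The count of 2827 members became 1492 with peaks of at least 10 reads, 1489 with a CLIPper p under 0.001, 685 with a peak in all 3 overexpression libraries and 701 with thinned libraries, and ran from 1125 to 3659 as each library was left out, with 1125 without overexpression replicate 2 and 1185 without overexpression replicate 3. The U2AF2 share difference ran from 0.22 to 0.31 and that of hnRNPA1 from -0.84 to -0.80 under the same omissions, and both kept their sign under every setting tried. Of members tested for U2AF2, 462 higher became 743 on the total-read scale (which moved the median of all genes from 0.76 to 1.49 on the log2 scale) and 250 with a peak in every library, and ran from 124 to 505 with a library left out (124, 134 and 212 without overexpression replicate 1, 2 and 3). The 342 lower became 117 with a peak in every library and ran from 214 (without control replicate 2; 215 without control replicate 3) to 331. Host genes higher for U2AF2, 507, became 879 on the total-read scale and ran from 258 (without overexpression replicate 1; 266 without overexpression replicate 2) to 560, and those lower ran from 465 to 615. Members higher for hnRNPA1, 104, ran from 77 to 172 (163 and 172 without overexpression replicate 2 and 1), and the 969 lower became 131 under quantile normalization and 1 with a peak in every library, and ran from 1 to 1194, with 1 and 2 without control replicate 1 and 2. Host genes higher for hnRNPA1, 184, became 0 under quantile normalization (712 with an unadjusted limma p under 0.05) and ran from 90 to 282 (90 and 93 without control replicate 1 and 2), and the 468 lower became 0 under quantile normalization and 145 with a peak in every library, and ran from 24 to 864 (24 and 31 without control replicate 1 and 2, 766 and 864 without overexpression replicate 1 and 2). Cassette events became 57 when counted by gene with a member. Replicate numbers did not pair the libraries (largest same-number correlation 0.022). Under the replicate block, 44 members were called higher for hnRNPA1, 395 higher and 326 lower for U2AF2, and no other count moved by over 1.5 times. The causes of these moves were not tested. Peaks under the minimum are not listed, which limits what absence in a library means.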
